A study of Mus musculus with 12 samples.

Results

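The nAVF group is the set of fistula veins that the study kept as its typical arteriovenous fistulas (AVF), and it was compared with sham veins across all genes. It comprised 4 libraries, #04 and #06 from male mice and #07 and #11 from female mice, and the sham group comprised 6 libraries, #16, #17 and #18 from males and #19, #22 and #23 from females, so that 10 of the 12 libraries entered the comparison. The remaining libraries, #05 from a male and #09 from a female, also came from fistula veins, were named OUT by the study, and are given beside the results but not in the fit. All mice were wild-type C57BL/6 animals of 10 weeks, and the tissue was the inferior vena cava (IVC), taken on day 7 after operation with 1 library of poly(A) RNA per mouse. In the AVF mice a needle was passed through the aorta into the IVC below the renal vessels, so that arterial blood entered the vein, and in the sham mice the same vessels were exposed and clamped but not punctured. The whole vein was used, so cells of the wall and any tissue attached to it were measured together, and in such bulk samples fewer cells of a type and less RNA per cell cannot be told apart.

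The libraries of the nAVF group were chosen by the study from the expression of these same genes. As a description of that choice, with no test, the mean distance to the nAVF libraries, as 1 minus Spearman's correlation over the tested genes, was 0.0328 to 0.0413 for the nAVF libraries, 0.0472 for sample #05 and 0.0640 for sample #09. The adjusted p values of nAVF against sham do not account for the choice, and for that reason the adjusted p value with all 6 AVF libraries, which does not use it, is given beside the tests of named genes. Genes entered with more than 12 counts over the 12 libraries, which left 250 genes at 13 counts just inside and 234 genes at 12 counts just outside.

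A vein joined to an artery enlarges, and its wall gains cells and matrix. Smooth muscle cells and fibroblasts divide, and they secrete elastic fibres, collagens and other extracellular matrix (ECM). Elastic fibres are built from elastin on a scaffold of fibrillin, lysyl oxidases crosslink elastin and collagen, and transforming growth factor beta (TGF-beta) is a known inducer of many of these genes. Macrophages enter the wall of a remodeling vein, and fat and sympathetic nerves lie around it.

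Depth was 15177881 to 22717423 counts per library. Sample #07 stood apart from the rest: ribosomal RNA genes took 46.0% of its counts, against 2.39% to 12.6% in the others, which left it 8196603 other counts, so results are also given without it. A gene with 3 counts, the most taken as not detected, had 0.126 to 0.307 normalized CPM, that is, counts scaled to the normalized library size, and this limit covers counting error only. The tissue label was checked on defining markers. Myh11, the myosin of smooth muscle, was at 987 to 1294 normalized CPM in the nAVF group and 961 to 1763 in the sham group, and the endothelial Cdh5 at 259 to 323 and 211 to 310.1 (adjusted p = 0.582, all 6 AVF 0.409). Alb, the albumin gene of hepatocytes, was at 0.575 to 2.65 in the nAVF libraries and 0.126 to 1.94 in the sham libraries, against 1819.7 and 5601 in samples #05 and #09.

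Of 22059 genes tested, 337 (1.53%) were DEG with higher and 103 (0.467%) DEG with lower expression in nAVF than in sham, by edgeR's quasi-likelihood test with Benjamini-Hochberg adjustment at 0.05 and a 2-fold threshold. At any fold, 713 genes (3.23%) rose and 250 genes (1.13%) fell, and in what follows a gene that rose or fell is one with an adjusted p value under 0.05 in this test. The nAVF libraries lay above every sham library in 298 of the higher DEG and below every sham library in 74 of the lower DEG, while over all tested genes 4.27% lay above and 2.56% below. The genes named below for the lowest adjusted p values or the largest changes were taken only from DEG whose groups did not overlap. Their separation followed from that choice. The change was at least 4-fold in 76 higher and 16 lower DEG. Without sample #07, 308 of the higher DEG and 48 of the lower were DEG again, and with all 6 AVF libraries 301 and 68 were. Those fits called 1.71% and 0.449% of their genes without sample #07, and 2.40% and 1.00% with all 6 AVF libraries. In the fits with 1 library left out, the number of higher DEG was 207 to 376, lowest without sample #11, and 203 kept an adjusted p value under 0.05 in every such fit. The lower DEG numbered 31 without sample #11, 42 without #06, 51 without #16, 56 without #22, 164 without #04 and 161 without #18, and 27 kept an adjusted p value under 0.05 in every such fit.

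**Figure D1:**
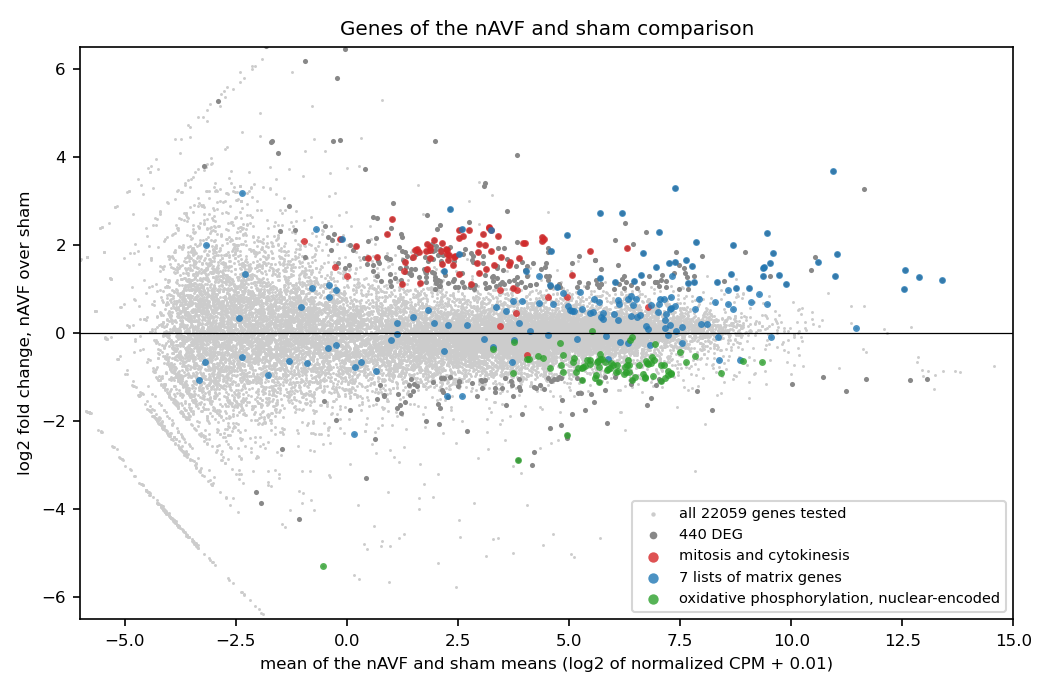
Each point is 1 of the 22059 genes tested, with the log2 of the mean normalized CPM plus 0.01 on the horizontal axis and the log2 fold change of nAVF over sham on the vertical axis. The 440 DEG are dark grey, the 75 mitosis genes red, the 163 genes of 7 ECM lists blue and the 82 genes of oxidative phosphorylation green, with most red points above 0, and 22 genes beyond 6.5 in either direction are not shown.

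The genes were grouped into 43 lists of pathways, matrix components and cell types, in which 231 memberships rose and 40 fell. Over all tested genes the median log2 fold change was -0.04, the value to set beside the medians of the lists. The lists with the largest shares of rising members were mitosis and cytokinesis, collagen processing and crosslinking, elastic fibre, matricellular proteins and TGF-beta signaling, and the members that fell lay mostly in lists of energy metabolism and brown fat.

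**Figure D2:**
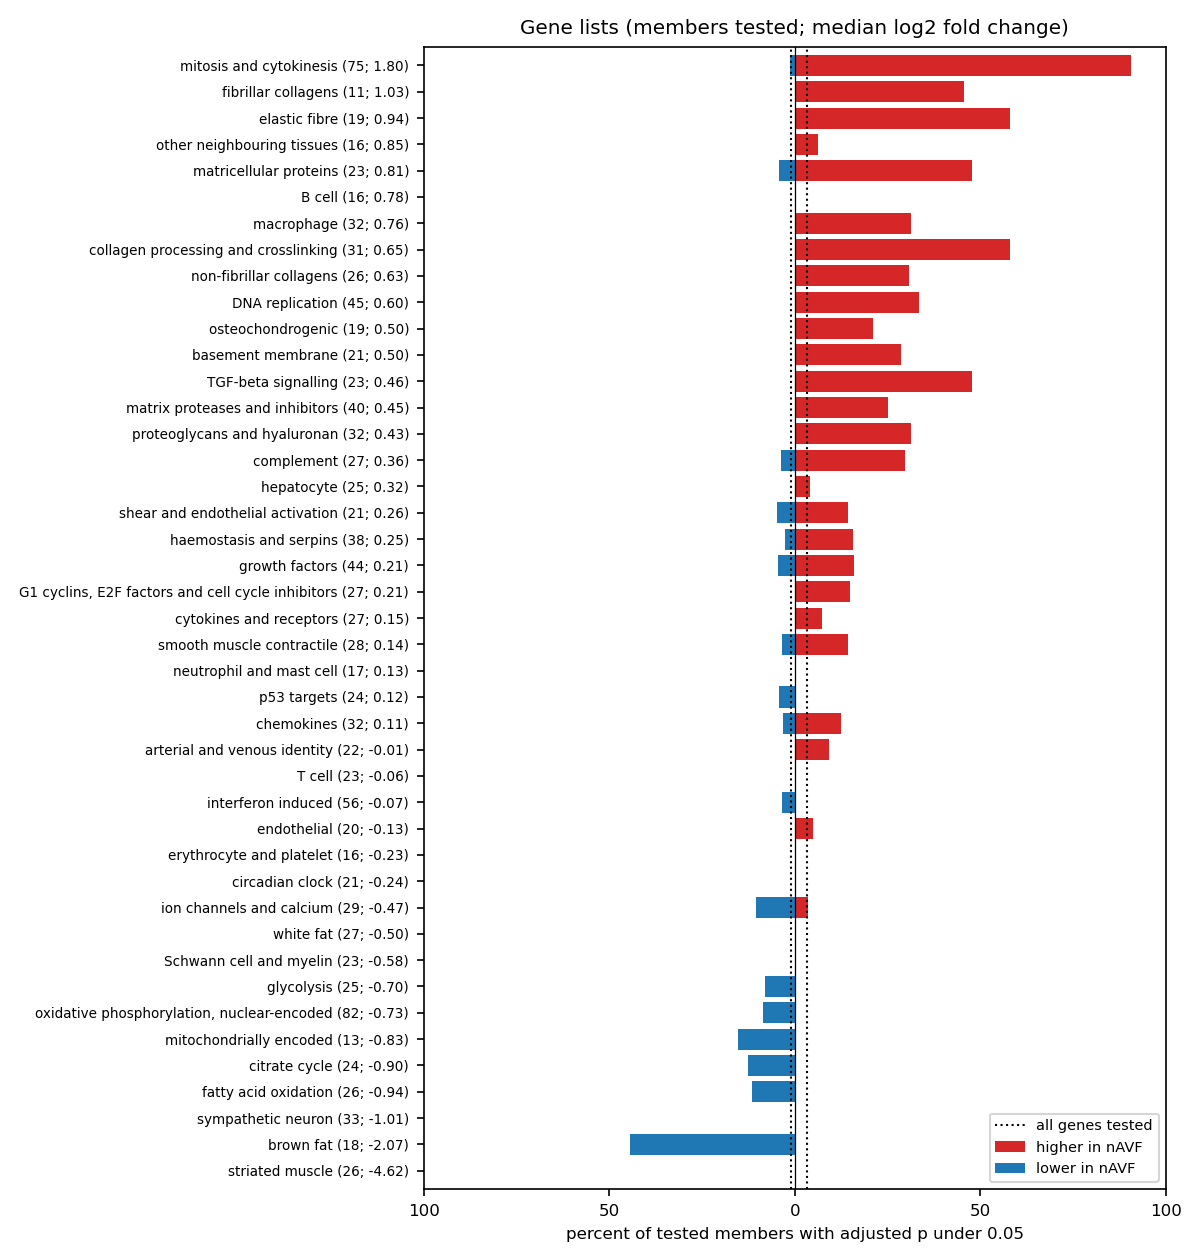
Each bar gives the percentage of the tested members of 1 gene list that rose (right, red) or fell (left, blue) in nAVF against sham at an adjusted p value under 0.05, dotted lines mark the shares over all tested genes, and lists are ordered by their median log2 fold change. Of the 75 mitosis genes 68 rose, and of the 82 nuclear genes of oxidative phosphorylation 7 fell.

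Genes of mitosis and cytokinesis were higher in the nAVF group as a body. Of 75 members, 68 rose and 1 fell, with a median log2 fold change of 1.80, and 70 had every nAVF library above every sham library. The counts were 67 without sample #07 (3.33% of all genes rose and 0.921% fell), 72 with all 6 AVF libraries (5.30% of all genes tested in that fit rose), and 51 to 69 with 1 library left out, lowest without sample #11. Mki67, which encodes the Ki-67 protein of dividing cells, had 89.4, 122, 117 and 173 normalized CPM in samples #04, #06, #07 and #11, while sham libraries had 24.9 at the lowest, 31 at the median and 41.6 at the highest. All nAVF values were above all sham values, and samples #05 and #09 had 77.9 and 102. The log2 fold change of Mki67 was 1.94 (standard error 0.19, adjusted p = 3.47e-04, and 2.25e-04 with all 6 AVF libraries).

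Kif4, a kinesin of the mitotic spindle and of chromosome condensation, had 6.96, 8.81, 8.34 and 13.3 normalized CPM in the nAVF libraries and 1.58 at the lowest, 2.21 at the median and 2.56 at the highest in the sham libraries. Its log2 fold change was 2.15 (standard error 0.22, adjusted p = 4.01e-04, all 6 AVF 1.80e-04). Cenpf, a protein of the kinetochore, had 25.7, 34.5, 32.8 and 45.1 normalized CPM in nAVF against 4.66 at the lowest, 7.26 at the median and 11 at the highest in sham, for a log2 difference of 2.18 (standard error 0.24, adjusted p = 6.03e-04, all 6 AVF 2.57e-04). For both genes the groups did not overlap, and sample #11 was the highest nAVF library, as it was for Mki67. The one member that fell was Pttg1, securin, an inhibitor of chromatid separation, with 13.6, 15, 11.3 and 15.3 in nAVF and 18.1 to 20.9 in sham (log2 fold change -0.49, adjusted p = 0.0342, all 6 AVF 0.0125). The call for Pttg1 held in 1 of the 10 fits with 1 library left out, with an adjusted p of 0.0562 to 0.0795 without #04, #06, #07, #11, #16, #17, #19, #22 and #23. The 6 members that did not pass were Ccnf, Cdc25b, Ska1, Cenpm, Cdc25c and Cit.

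The promoters of these genes are shown because 68 members moved the same way and because many mitotic genes are known to carry a cell cycle homology region (CHR) and CCAAT boxes near the start. Sequences are from RefSeq on GRCm38.p6, from 250 bases before to 50 after the start, 5′ to 3′ on the strand of the gene. Capitals mark the CHR, searched as TTTGAA and also in the form TTTAAA, the box CCAAT, and E2F-type letters, searched as TTTCCCG and also in the forms with TTTGGCG and with TTTCGCG, all on either strand. Kif4 was read from chrX:100625815-100626114 (plus strand), Mki67 from chr7:135716330-135716629 (minus), Cenpf from chr1:189688037-189688336 (minus) and Pclaf, a DNA replication gene, from chr9:65890073-65890372 (plus).
Mki67: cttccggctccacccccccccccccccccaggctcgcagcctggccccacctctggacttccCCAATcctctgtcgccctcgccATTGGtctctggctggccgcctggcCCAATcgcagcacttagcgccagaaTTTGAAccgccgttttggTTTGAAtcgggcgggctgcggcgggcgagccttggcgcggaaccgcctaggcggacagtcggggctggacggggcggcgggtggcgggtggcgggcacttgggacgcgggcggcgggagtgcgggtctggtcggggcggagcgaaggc
Kif4: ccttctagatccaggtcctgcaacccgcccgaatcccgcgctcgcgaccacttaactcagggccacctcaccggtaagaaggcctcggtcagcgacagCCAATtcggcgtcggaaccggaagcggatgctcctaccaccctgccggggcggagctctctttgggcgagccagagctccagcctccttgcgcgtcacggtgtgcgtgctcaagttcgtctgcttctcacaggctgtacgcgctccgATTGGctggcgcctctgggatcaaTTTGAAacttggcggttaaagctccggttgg
Cenpf: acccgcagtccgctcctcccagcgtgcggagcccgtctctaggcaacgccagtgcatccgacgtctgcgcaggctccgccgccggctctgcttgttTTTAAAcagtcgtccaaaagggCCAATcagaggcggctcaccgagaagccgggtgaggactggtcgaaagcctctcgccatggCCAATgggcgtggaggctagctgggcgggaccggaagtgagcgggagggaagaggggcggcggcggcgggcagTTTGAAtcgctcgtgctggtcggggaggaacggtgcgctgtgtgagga
Pclaf: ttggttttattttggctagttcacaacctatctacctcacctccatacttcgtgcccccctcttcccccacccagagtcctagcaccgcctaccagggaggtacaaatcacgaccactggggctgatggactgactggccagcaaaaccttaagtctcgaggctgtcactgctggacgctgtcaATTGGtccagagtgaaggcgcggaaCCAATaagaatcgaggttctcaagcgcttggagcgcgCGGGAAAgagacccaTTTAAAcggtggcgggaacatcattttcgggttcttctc

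The Mki67 window held 2 CHR and 3 CCAAT matches, Kif4 1 and 2, Cenpf 2 and 2, and Pclaf 1 and 2 with 1 E2F-type match. Of the 63 mitosis members with a promoter in the table, 48 (76.2%) held a CHR match and 44 (69.8%) a CCAAT match, and 37 (58.7%) held both. Over all 27025 promoters the shares were 27.8%, 37.9% and 10.9%. E2F-type letters were in 11 mitosis promoters (17.5%) and in 5.72% of all promoters. In the 36 promoters of the DNA replication list the counts were 10 for CHR (27.8%), 20 for CCAAT (55.6%) and 18 for the E2F-type letters (50%). A match describes the letters of the window and is not a measured binding site.

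DNA replication genes rose in a smaller share than mitosis genes. Of 45 members, 15 rose and none fell (median log2 fold change 0.60), with 19 without sample #07, 8 without #06, 8 without #11 and 21 with all 6 AVF libraries. Pclaf, a partner of the sliding clamp PCNA, had 14.8, 17.7, 13 and 21.2 normalized CPM in the nAVF libraries and 2.95 at the lowest, 4.42 at the median and 5.53 at the highest in the sham libraries (log2 fold change 1.93, standard error 0.19, adjusted p = 3.64e-04, all 6 AVF 4.99e-05). Rrm2, a subunit of ribonucleotide reductase, had 14.4, 15, 12.1 and 19.6 in nAVF and 3.94 at the lowest, 5.13 at the median and 9.15 at the highest in sham (log2 fold change 1.47, adjusted p = 0.00396, all 6 AVF 0.00129). Both genes separated the groups without overlap. Tk1, thymidine kinase, and Pole, the catalytic subunit of DNA polymerase epsilon, rose with log2 fold changes of 2.18 and 1.41 (adjusted p = 0.00377 and 0.00167, all 6 AVF 0.00153 and 9.32e-04). Among 27 G1 cyclins, E2F factors and cell cycle inhibitors, 4 rose: Ccne2, a cyclin of entry into S phase (12.5 to 16 in nAVF against 5.23 to 6.68 in sham, log2 fold change 1.18, adjusted p = 6.03e-04, all 6 AVF 1.68e-04), the repressors E2f8 and E2f7, and the kinase Cdk4. That count was 2 without sample #04 and 2 without #11. Of 24 targets of p53 none rose, and Perp, a desmosomal protein, fell from 8.71 to 14.5 to 3.95 to 6.41 (log2 fold change -1.08, adjusted p = 0.0113). With all 6 AVF libraries the adjusted p of Perp was 0.596, as samples #05 and #09 had 11 and 20.7. The p53 count of rising members was 1 without sample #07, and that of falling members 2 without #04.

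Among genes of the elastic fibre, 11 of 19 rose and none fell, with a median log2 fold change of 0.94 and 10 to 11 rising in each fit with 1 library left out. Elastin (Eln, ENSMUSG00000029675), on chromosome 5, 134731445 to 134776322 of GRCm39, had the lowest adjusted p value of the higher DEG. It had 2174, 4955, 3193 and 4204 normalized CPM in samples #04, #06, #07 and #11, and the sham libraries had 204 at the lowest, 283 at the median and 374 at the highest. The lowest nAVF library was several times above the highest sham library, and samples #05 and #09 had 3181 and 2318. The means were 3632 ± 1211 (SD, n = 4) and 284 ± 59.6 (SD, n = 6), so the log2 fold change was 3.67 (standard error 0.24, adjusted p = 3.54e-05, 2.91e-04 without sample #07 and 1.63e-05 with all 6 AVF libraries).

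Fbn2, a fibrillin of developing microfibrils, had 10.5, 6.87, 10.1 and 7.3 normalized CPM in nAVF and 0.663 at the lowest, 1.25 at the median and 1.84 at the highest in sham (log2 fold change 2.82, standard error 0.28, adjusted p = 4.01e-04, all 6 AVF 3.60e-04). Samples #05 and #09 had 4.35 and 4.72, below all nAVF libraries and above all sham libraries. The microfibril-associated Mfap4 had 272, 329, 265 and 333 in nAVF and 65.3 at the lowest, 93.4 at the median and 118 at the highest in sham (log2 fold change 1.67, adjusted p = 1.99e-04, all 6 AVF 5.66e-05), and Mfap5 rose likewise (log2 fold change 1.62, adjusted p = 7.38e-04, all 6 AVF 1.75e-04). The other members that rose were Fbn1, Fbln2, Fbln5, Efemp2, Mfap2, Ltbp2 and Ltbp3. Adamtsl2, a secreted protein that binds fibrillin and is not in the list, was at 20.4, 20.1, 19.4 and 25.4 normalized CPM in nAVF and 1.78 to 4.56 in sham (log2 fold change 2.78, standard error 0.30, adjusted p = 6.03e-04, all 6 AVF 1.68e-04).

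**Figure D3:**
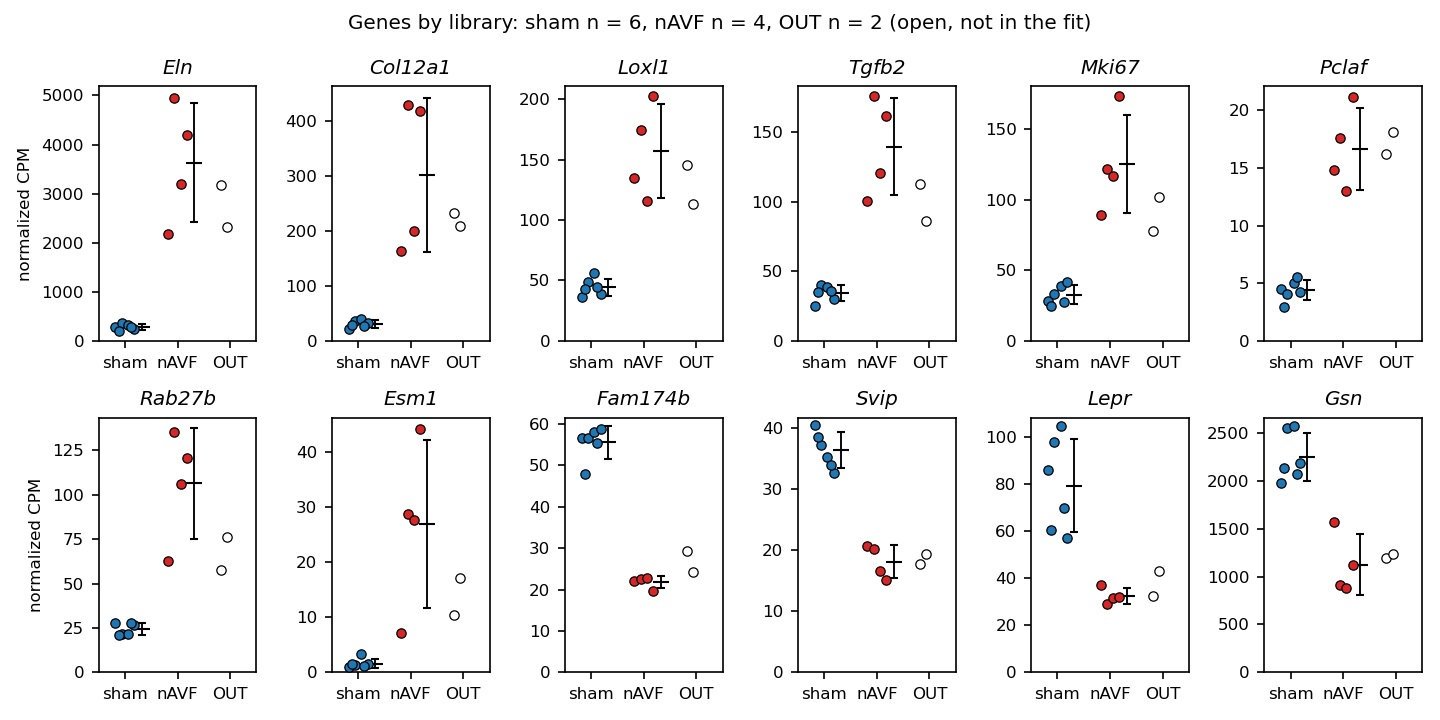
Normalized CPM of single genes on linear axes from 0, with 1 point per library (sham blue, nAVF red, OUT open) and the mean and SD of the sham and nAVF groups beside the points. Eln lay between 2174 and 4955 in nAVF and between 204 and 374 in sham, and Fam174b, which fell, lay between 19.7 and 22.9 against 47.8 to 58.8.

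Collagen processing and crosslinking rose in 18 of 31 members (median log2 fold change 0.65), 10 without sample #06, 10 without #11 and 21 with all 6 AVF libraries. Lox, lysyl oxidase, had 786, 999, 869 and 1970.1 normalized CPM in nAVF and 185 at the lowest, 239 at the median and 289 at the highest in sham (log2 fold change 2.28, standard error 0.25, adjusted p = 6.03e-04, all 6 AVF 3.21e-04). Sample #11 was the highest, and the groups were apart. Its paralogs Loxl1 (135, 174, 116 and 203 against 36.2 to 55.9) and Loxl2 (276, 348, 283 and 389 against 78.6 to 149) had log2 fold changes of 1.82 and 1.52 (adjusted p = 2.19e-04 and 6.03e-04, all 6 AVF 7.24e-05 and 1.30e-04). Loxl3 also rose. Fkbp10, a collagen chaperone of the endoplasmic reticulum, rose as well (log2 fold change 1.24, adjusted p = 0.00302, all 6 AVF 0.0014).

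The collagens of fibrils rose in 5 of 11 members: Col1a1, Col1a2, Col3a1, Col5a1 and Col5a2. Col1a1, a chain of type I collagen, had 7766, 10458, 6829.8 and 10310.2 normalized CPM in nAVF and 2119.9 at the lowest, 3034 at the median and 5074 at the highest in sham, without overlap (log2 fold change 1.44, standard error 0.25, adjusted p = 0.0083, all 6 AVF 0.00587). Col5a2 and Col5a1, chains of the type V collagen that nucleates fibrils, had log2 fold changes of 1.51 and 1.48 (adjusted p = 0.00175 and 0.00546, all 6 AVF 4.51e-04 and 0.00267). The list count was 3 without sample #06, and 1 member fell without sample #07.

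The non-fibrillar collagens rose in 8 of 26 members (5 without sample #06 and 5 without #11). Col12a1, a collagen of fibril surfaces, had 163, 428, 199 and 417 normalized CPM in nAVF and 21 at the lowest, 30.5 at the median and 39.2 at the highest in sham, and 231 and 209 in samples #05 and #09 (log2 fold change 3.30, standard error 0.28, adjusted p = 1.74e-04, all 6 AVF 4.99e-05). Samples #06 and #11 were well above #04 and #07. Col8a1, a short-chain collagen of vessels, had 137, 356, 172 and 205 against 24.2 to 72.4 (log2 fold change 2.30, adjusted p = 0.00128, all 6 AVF 3.34e-04).

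Of 21 basement membrane genes, 6 rose. The neighbouring genes Col4a1 and Col4a2, the chains of the common type IV collagen, had 1076, 1453, 985 and 1288 and 496, 661, 506 and 632 normalized CPM in the nAVF libraries and 398 to 542 and 189.8 to 261 in the sham libraries. Neither overlapped, and the log2 fold changes were 1.31 and 1.35 (standard errors 0.14 and 0.13, adjusted p = 6.03e-04 and 3.30e-04, all 6 AVF 7.24e-05 and 4.99e-05). The count of rising members was 2 without sample #06 and 3 without each of #04, #11, #16, #22 and #23, and 1 fell without #04 and without #23.

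Matricellular proteins, which sit in the ECM and signal to cells, rose in 11 of 23 members (median log2 fold change 0.81, 8 to 12 with 1 library left out). Cthrc1, a secreted protein of injured arteries, had 65.1, 111, 66.4 and 116 normalized CPM in nAVF and 8.86 at the lowest, 13.1 at the median and 18.9 at the highest in sham (log2 fold change 2.72, standard error 0.22, adjusted p = 1.74e-04, all 6 AVF 4.99e-05). Fn1, fibronectin, had 2195, 5134, 2819.5 and 2925 against 715 to 1201 and Postn, periostin, 1746, 3349, 1814 and 2464 against 561 to 953 (log2 fold changes 1.80 and 1.61, adjusted p = 0.00123 and 0.00127, all 6 AVF 3.60e-04 and 3.33e-04). Sample #06 was the highest library for both, and no sham library reached the lowest nAVF library. Ccn4 (log2 fold change 2.22, adjusted p = 0.00104, all 6 AVF 3.97e-04), Ccn2, Ccn3, Ccn5 and Tnc also rose. Sparcl1 was the member that fell, a call that held in 2 of the 10 fits with 1 library left out, those without samples #16 and #22.

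Among proteoglycans and genes of hyaluronan, 10 of 32 rose and none fell, with 6 without sample #16 and 1 falling without #04. Vcan, versican, had 177, 181, 153 and 224 normalized CPM in nAVF and 48 at the lowest, 64 at the median and 87.2 at the highest in sham (log2 fold change 1.49, standard error 0.18, adjusted p = 7.85e-04, all 6 AVF 5.40e-04). Lum, lumican, rose from 266 to 462 to 768 to 1084 (log2 fold change 1.29, adjusted p = 9.41e-04, all 6 AVF 2.25e-04). Hmmr, a hyaluronan receptor that also binds the mitotic spindle, rose (log2 fold change 2.34, adjusted p = 9.52e-04, all 6 AVF 3.34e-04). Gxylt2, a glycosyltransferase outside the list, had 198, 335, 294 and 237 in nAVF and 57.5 to 95.9 in sham (log2 fold change 1.84, adjusted p = 3.64e-04, all 6 AVF 2.86e-04).

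Of 40 matrix proteases and inhibitors, 10 rose and none fell. Adamts12, a secreted metalloprotease, had 217, 279.8, 261 and 299 normalized CPM in nAVF and 71.2 to 132 in sham (log2 fold change 1.54, adjusted p = 6.03e-04, all 6 AVF 2.25e-04). Mmp14, a membrane protease that activates Mmp2, had 144, 193, 187 and 250.1 against 56.6 to 102 (log2 fold change 1.31, adjusted p = 0.00506, all 6 AVF 0.00109), and Mmp2 itself rose. The inhibitor Timp1 had 37.6, 28.8, 18.6 and 47.5 in nAVF and 7.32 to 20.1 in sham, so sample #07 lay within the sham range (log2 fold change 1.29, adjusted p = 0.0269, all 6 AVF 0.00578). Its call held in 5 of the 10 fits with 1 library left out, with an adjusted p of 0.0544 to 0.107 without #04, #06, #11, #16 and #23. The number of members that rose was 5 without sample #11, 5 without #16 and 6 without each of #06, #22 and #23, and 1 fell without each of #04, #07 and #18.

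In the TGF-beta list, 11 of 23 members rose and none fell (median log2 fold change 0.46), with 4 without sample #11, 6 without #22, 7 without #06 and 7 without #16. Of the ligands, Tgfb2 had 100.5, 176, 121 and 162 normalized CPM in nAVF and 25.4 at the lowest, 35.7 at the median and 40.6 at the highest in sham (log2 fold change 2.02, standard error 0.17, adjusted p = 1.74e-04, all 6 AVF 1.18e-04), and Tgfb3 162, 207, 267 and 309 against 67.5 to 129 (log2 fold change 1.36, adjusted p = 0.00352, all 6 AVF 0.00307). Both ligands were above the sham range in every nAVF library. Of the known targets and feedback inhibitors, Skil, a repressor of Smad proteins, had 109.7 to 133 against 52.6 to 73.7, and Smad7 28.8 to 34.7 against 12 to 19.9 (log2 fold changes 0.84 and 1.06, adjusted p = 0.00128 and 0.00259, all 6 AVF 0.0020 and 0.00269).

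Of 44 growth factors, receptors and binding proteins, 7 rose and 2 fell. Igf1, insulin-like growth factor 1, had 715, 809.8, 726 and 853 normalized CPM in nAVF and 122 at the lowest, 236 at the median and 281 at the highest in sham (log2 fold change 1.84, standard error 0.20, adjusted p = 6.03e-04, all 6 AVF 3.21e-04). Its binding proteins moved in both directions: Igfbp2 had 3.91, 29.1, 4.78 and 23.4 against 0.388 to 3.51 (log2 fold change 3.33, adjusted p = 0.0143, all 6 AVF 0.00529), and Igfbp3 had 47.4, 33.8, 48 and 80.9 against 92.7 to 267 (log2 fold change -1.63, adjusted p = 0.0188, all 6 AVF 0.00481). The call for Igfbp2 was lost without sample #06 (adjusted p = 0.0554) and without sample #11 (adjusted p = 0.0564), and that for Igfbp3 was lost without sample #06 (adjusted p = 0.0636) and without sample #07 (adjusted p = 0.0515). Vegfd, a ligand of lymphatic and vascular growth, had 91.9, 124, 56.2 and 135 in nAVF and 33 to 55.5 in sham (log2 fold change 1.23, adjusted p = 0.00859, all 6 AVF 0.0174). The rising members were 2 without sample #06 and 3 without #11, and the falling members 0 without #06 and #07, 1 without each of #11, #16, #19, #22 and #23, and 3 without #04.

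The 4 osteochondrogenic members that rose, of 19, did so in every fit with 1 library left out. Tnfrsf11b, osteoprotegerin, the decoy receptor of RANKL, had 12.2, 23.4, 7.22 and 19.7 normalized CPM in nAVF and 0.921 at the lowest, 1.44 at the median and 2.34 at the highest in sham (log2 fold change 3.40, standard error 0.33, adjusted p = 3.62e-04, all 6 AVF 5.99e-05). Cilp, a matrix protein of cartilage, had 132, 153, 186 and 234 against 21.8 to 59.3 (log2 fold change 2.30, adjusted p = 6.03e-04, all 6 AVF 5.49e-04), and Mgp, an inhibitor of calcification, 395, 472, 407 and 598 against 220.1 to 321 (log2 fold change 0.89, adjusted p = 0.00579, all 6 AVF 0.00134). Chad, chondroadherin, had 0.518, 2.47, 3.05 and 0.656 in nAVF and no sham library above 0.105, so that it was at least 11.9-fold higher, taking 3 counts per sham library as the floor (adjusted p = 0.00302, all 6 AVF 0.00222). Gdf6, a bone morphogenetic protein of joints outside the list, had 1.96, 8.45, 3.87 and 15.7 in nAVF and 0.194 to 0.523 in sham (log2 fold change 4.36, standard error 0.52, adjusted p = 7.85e-04, all 6 AVF 3.34e-04).

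Of 28 smooth muscle contractile genes, Rgs5, Vcl, Actg2 and Cald1 rose and Susd5 fell. Rgs5, a regulator of G protein signaling known from pericytes, had 1712, 2838, 1587 and 2051 normalized CPM in nAVF and 449 at the lowest, 811 at the median and 1098 at the highest in sham (log2 fold change 1.44, adjusted p = 0.00764, all 6 AVF 0.00633). For Myh11 the groups overlapped, with a log2 fold change of -0.17 (adjusted p = 0.624, all 6 AVF 0.385), and for Cnn1, calponin, with 159 to 268 against 103 to 200.5, it was 0.43 (adjusted p = 0.235, all 6 AVF 0.364). The rising count of the list was 1 without samples #06 or #11 and 2 without #16, #22 or #23, and the falling count 0 without #06, #11, #16 or #17 and 2 without #19 or #22. Susd5 had 12.9, 11, 15.1 and 5.29 against 18.3 to 39.2 (log2 fold change -1.24, adjusted p = 0.0348, all 6 AVF 0.00939).

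Of 20 endothelial genes 1 rose (5%, against 3.23% of all genes tested) and none fell, while 15 had a negative log2 fold change (median -0.13). The member that rose was Eng, a co-receptor of TGF-beta, at 162, 189.6, 182 and 234 normalized CPM in nAVF and 109.5 to 154 in sham (log2 fold change 0.52, adjusted p = 0.0437, all 6 AVF 0.0316). Its call held in 3 of the 10 fits with 1 library left out, with an adjusted p of 0.0575 to 0.14 without #06, #07, #11, #16, #17, #22 and #23. Pecam1 was at 573 to 680.5 in nAVF and 595 to 1092 in sham (log2 fold change -0.26, adjusted p = 0.408, all 6 AVF 0.357). Among 22 genes of arterial and venous identity, Gja4, the connexin 37 of arterial endothelium, had 13.9, 17.9, 12.5 and 10.9 against 4.36 to 9.91 (log2 fold change 1.07, adjusted p = 0.0152, all 6 AVF 0.00975), and Unc5b, a netrin receptor, 20.03, 33.5, 18.7 and 22.6 against 7.74 to 15.4 (log2 fold change 0.96, adjusted p = 0.0298, all 6 AVF 0.0324). The call for Gja4 was lost without sample #06 (adjusted p = 0.060). That for Unc5b held in 6 of the 10 fits with 1 library left out, with an adjusted p of 0.0593 to 0.104 without #06, #11, #16 and #23. The identity count was 0 without #06, 1 without #11, #16 or #23 and 3 without #04 or #17, and 2 members fell without #04 and 1 without #18.

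Of 21 genes of shear stress and endothelial activation, 3 rose and 1 fell. Esm1, endocan, a secreted proteoglycan of endothelial tip cells, had 7.08, 28.7, 27.8 and 44.2 normalized CPM in nAVF and 1.04 at the lowest, 1.36 at the median and 3.26 at the highest in sham (log2 fold change 4.05, standard error 0.44, adjusted p = 6.03e-04, all 6 AVF 3.60e-04). The groups did not overlap, and sample #04 was the lowest nAVF library. Hmox1, heme oxygenase 1, had 28.4, 19.1, 19.3 and 41.1 against 12.5 to 15.7 (log2 fold change 0.96, adjusted p = 0.0177, all 6 AVF 0.00592). Piezo1, a mechanosensitive ion channel, had 66.9, 58, 62 and 59.98 against 40.8 to 53.3, and Angpt2, a ligand of Tie2, 45.6, 44.3, 54.4 and 53.1 against 49.9 to 88.4 (log2 fold changes 0.38 and -0.60, adjusted p = 0.047 and 0.0486, all 6 AVF 0.00874 and 0.0195). The Piezo1 call held in 2 of the 10 fits with 1 library left out, with an adjusted p of 0.0715 to 0.0992 without #04, #06, #07, #11, #16, #17, #22 and #23. The Angpt2 call held in 1 of the 10 fits with 1 library left out, with an adjusted p of 0.070 to 0.134 without #04, #06, #07, #11, #17, #18, #19, #22 and #23.

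Macrophage genes rose in 10 of 32 members and fell in none (median log2 fold change 0.76), with 14 without sample #07 and 19 with all 6 AVF libraries. Itgam, the integrin chain CD11b, had 64.3, 56, 56.9 and 78.5 normalized CPM in nAVF and 27.5 at the lowest, 34.8 at the median and 44.6 at the highest in sham (log2 fold change 0.85, standard error 0.16, adjusted p = 0.0103, all 6 AVF 0.00509). C1qb and C1qa, complement chains made by macrophages, had 90.6, 82.5, 66.5 and 134 and 80.7, 59.8, 51.6 and 107 in nAVF and 42.3 to 58.6 and 33.3 to 45.2 in sham (log2 fold changes 0.92 and 0.94, adjusted p = 0.012 and 0.0143, all 6 AVF 0.00427 and 0.00599). These 3 genes did not overlap between groups. Of the defining markers, Csf1r, the receptor of a macrophage growth factor, had 144, 131, 97.2 and 183 against 57.6 to 106 and Cd68 38.6, 31.3, 22.7 and 46.5 against 11.9 to 28, and sample #07 lay within the sham range for both (adjusted p = 0.0376 and 0.0467, all 6 AVF 0.0257 and 0.0327). The Csf1r call held in 4 of the 10 fits with 1 library left out, with an adjusted p of 0.0551 to 0.134 without #04, #06, #11, #16, #22 and #23. The Cd68 call held in 2 of the 10 fits with 1 library left out, with an adjusted p of 0.0592 to 0.157 without #04, #06, #11, #16, #17, #18, #19 and #22. The list count was 3 without #06, 3 without #11, 4 without #16 or #22 and 6 without #04, #17 or #19.

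Among 32 chemokines, 4 rose and 1 fell. Ccl9 and Ccl8, chemokines for monocytes, had 131, 110.2, 121 and 197 and 37.6, 27.3, 21.5 and 46.6 normalized CPM in nAVF and 45.2 to 80.7 and 7.27 to 17.2 in sham (log2 fold changes 1.14 and 1.59, adjusted p = 0.00546 and 0.00907, all 6 AVF 0.0020 and 0.00306). Ccl11, eotaxin, was the one that fell, with 47.9, 26.8, 31.4 and 36.1 against 48 to 70.7 (log2 fold change -0.76, adjusted p = 0.0241, all 6 AVF 0.00537), and its call held in 7 of the 10 fits with 1 library left out, with an adjusted p of 0.0544 to 0.0767 without #06, #07 and #11. The rising count was 2 without samples #11 or #22. No member of the T cell (23), B cell (16) or neutrophil and mast cell (17) lists passed by edgeR's quasi-likelihood test, with 1 T cell gene rising without #23 and 1 T cell and 1 neutrophil or mast cell gene falling without #04. All 16 B cell genes had a positive log2 fold change (median 0.78, and 0.56 without sample #07), against 10206 of all 22059 tested genes. Their summed level overlapped between groups, at 81.4 to 470.5 normalized CPM in nAVF, highest in sample #07, and 64.2 to 314 in sham. Outside the list, the immunoglobulin variable genes Igkv4-68 and Ighv1-82, named after their values were seen, had 7.19, 0, 0.407 and 0 and 3.74, 0, 0.305 and 0 in nAVF and no sham library above the limit of detection, so that their level lay mostly in sample #04 (adjusted p = 0.0459 and 0.0464, all 6 AVF 0.065 and 0.0714, and 0.425 and 0.365 without #04). Genes of this family share reads, so both levels are uncertain. Cd3e, a chain of the T cell receptor complex, at 0.314 to 1.55 in nAVF and 0.599 to 1.26 in sham, was near the limit of detection in both groups.

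Of 27 complement genes, 8 rose and 1 fell, and 11 rose with all 6 AVF libraries. C3ar1, a receptor of the C3a fragment, had 62.7, 43.2, 38.6 and 60.4 normalized CPM in nAVF and 14.6 to 32.3 in sham (log2 fold change 1.16, adjusted p = 0.0115, all 6 AVF 0.00654), a call that was lost without sample #11 (adjusted p = 0.0508). The complement inhibitor Cd59a fell, with 68, 76.5, 72.8 and 79.7 against 92.7 to 119.9 (log2 fold change -0.48, adjusted p = 0.0244, all 6 AVF 0.0132), and its call held in 4 of the 10 fits with 1 library left out, with an adjusted p of 0.0515 to 0.067 without #04, #06, #07, #11, #16 and #19. The rising count was 3 without sample #11, 4 without #04 or #16 and 5 without #06 or #22.

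Of 38 genes of haemostasis and serpins, 6 rose and 1 fell, with 3 rising without sample #11, 2 falling without #22 and 15 rising with all 6 AVF libraries. Tfpi2, an inhibitor of serine proteases in the matrix, had 16.8, 14, 12.3 and 15.6 normalized CPM in nAVF and 4.55 to 9.33 in sham (log2 fold change 1.25, adjusted p = 0.00431, all 6 AVF 0.00101). F8, coagulation factor VIII, fell, with 13.8, 17.5, 18.5 and 11.8 against 23.4 at the lowest, 32.9 at the median and 43.5 at the highest and no overlap (log2 fold change -1.09, standard error 0.20, adjusted p = 0.0105, all 6 AVF 0.00291). Serpinb6b, an intracellular serpin, rose with 83.4, 166, 97.8 and 112 against 47.4 to 64.1 (log2 fold change 1.10, adjusted p = 0.00381, all 6 AVF 5.93e-04).

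In 56 interferon-induced genes none rose and 2 fell. Ifi27l2b was at 3 counts or fewer in all nAVF libraries and at 0.561 to 1.26 normalized CPM in sham, at least 4.66-fold lower with 3 counts per nAVF library as the floor (adjusted p = 0.00167, all 6 AVF 0.0334, with 0.287 and 0.494 in samples #05 and #09). Tgtp1, an interferon-induced GTPase, had 13.8, 8.31, 9.16 and 7.16 against 13.3 to 27.7 (adjusted p = 0.0439, all 6 AVF 0.0931). It shares reads with the near-identical Tgtp2, so its level is uncertain, and its call held in 3 of the 10 fits with 1 library left out, with an adjusted p of 0.055 to 0.139 without #06, #07, #11, #16, #17, #18 and #19. Without sample #04, 8 members of the list fell, and without #06, #07, #11, #16, #17 or #19 only 1 did.

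Among single genes that fell, Fam174b had the lowest adjusted p value. It had 22, 22.4, 22.9 and 19.7 normalized CPM in samples #04, #06, #07 and #11 and 47.8 at the lowest, 56.6 at the median and 58.8 at the highest in sham, with 29.3 and 24.2 in samples #05 and #09. The nAVF values lay within a narrow band, well below the lowest sham library (log2 fold change -1.35, standard error 0.10, adjusted p = 8.09e-05, all 6 AVF 4.89e-05). Svip, an inhibitor of protein degradation at the endoplasmic reticulum, had 20.7, 20.2, 16.6 and 15.2 against 32.7 at the lowest, 36.3 at the median and 40.5 at the highest (log2 fold change -1.003, adjusted p = 8.10e-04, all 6 AVF 1.30e-04). Lepr, the leptin receptor, had 37.2, 29, 31.5 and 31.8 against 57.1 at the lowest, 78.1 at the median and 105 at the highest (log2 fold change -1.29, adjusted p = 0.00224, all 6 AVF 7.57e-04).

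Gsn, gelsolin, which severs actin filaments, was the most abundant of these genes, with 1573, 917, 885 and 1120.2 normalized CPM in nAVF and 1975 at the lowest, 2162 at the median and 2571 at the highest in sham (log2 fold change -1.0002, standard error 0.18, adjusted p = 0.00949, all 6 AVF 0.00219). Inmt, an indolethylamine methyltransferase, had 16.9, 9.07, 7.83 and 8.62 against 24.5 at the lowest, 40.8 at the median and 79.2 at the highest (log2 fold change -2.09, adjusted p = 0.00619, all 6 AVF 0.0085), and sample #04 was the highest of the nAVF group. Rxrg, a retinoid X receptor, and Myrip, a linker of Rab27 to myosin, had log2 fold changes of -1.08 and -1.11 (adjusted p = 0.00831 and 0.00981, all 6 AVF 0.00314 and 0.00215). Rab27b, a GTPase of secretory vesicles, rose, with 63, 135, 106 and 121 in nAVF and 20.9 to 27.9 in sham (log2 fold change 2.12, standard error 0.18, adjusted p = 1.95e-04, all 6 AVF 2.25e-04). Wscd1, Chp2, Tuba4a and Mamdc2 also fell without overlap, with log2 fold changes of -1.61, -1.05, -1.30 and -1.26 (adjusted p = 0.00462, 0.00552, 0.0083 and 0.00891, all 6 AVF 0.00747, 9.59e-04, 0.0023 and 0.00383).

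Genes of energy metabolism had negative median log2 fold changes, and the number of members that passed depended on the libraries in the fit. In oxidative phosphorylation 7 of 82 nuclear genes fell (median -0.73), in the mitochondrial genome 2 of 13, in the citrate cycle 3 of 24, in fatty acid oxidation 3 of 26 and in glycolysis 2 of 25, and none rose. With all 6 AVF libraries 32, 2, 12, 7 and 10 fell (3.05% of all genes tested in that fit), and without sample #07 1, 1, 0, 0 and 1. Tested in females alone 57, 0, 20, 21 and 10 fell (1.82% of all genes tested in that fit fell and 1.22% rose), and in males alone 0 in each list (0.0273% of all genes). The medians of oxidative phosphorylation were -1.07 in females and -0.36 in males. The test of the difference between sexes called no gene with edgeR and 70 with DESeq2. Of the male sham libraries, samples #17 and #18 had low medians, -0.61 and -0.64, so the smaller change in males cannot be told apart from these libraries. The count for oxidative phosphorylation was 0 without sample #06, 0 without #11, 1 without #16, 2 without #19, 1 without #22, 2 without #23, 36 without #17 and 45 without #18. Lower DEG over all genes, 103 with all 10 libraries, also varied. They numbered 42 without #06, 31 without #11, 154 without #17 and 161 without #18. Samples #17 and #18 were the sham libraries whose medians of nuclear oxidative phosphorylation, relative to the sham mean, lay within the nAVF range on the log2 scale, at -0.61 and -0.64 against -0.98 to -0.44. The mitochondrial genome did not show this overlap. Its summed level was 60701 to 88444 normalized CPM in nAVF and 100399 to 187712 in sham, with 66240 and 122615 in samples #05 and #09. For mitosis genes the nAVF medians were 1.04 to 1.91 and the sham medians -0.27 to 0.23.

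**Figure D4:**
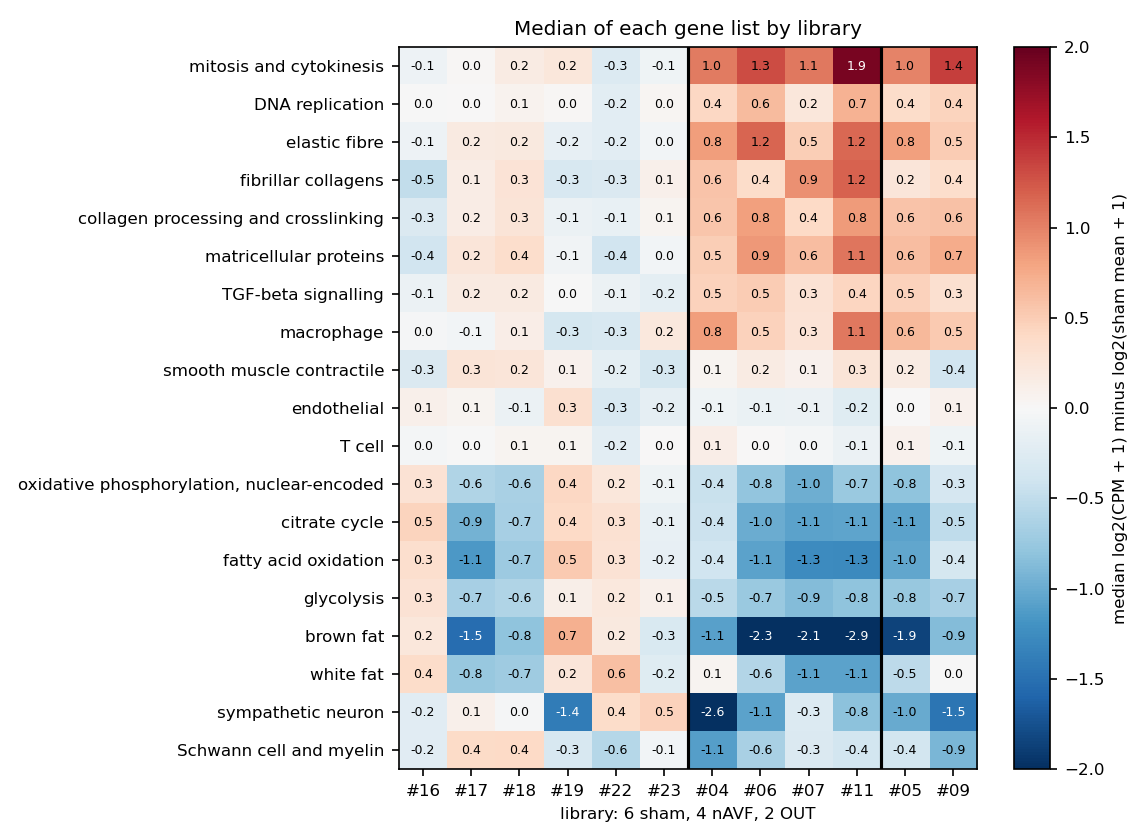
Each cell gives the median over the members of a list of the log2 of normalized CPM plus 1, less that of the sham mean, in 1 library, with red above the sham mean, blue below it, and lines between the sham, nAVF and OUT libraries. The mitosis medians of nAVF (1.04 to 1.91) and sham (-0.27 to 0.23) were apart, while for oxidative phosphorylation sham samples #17 and #18 (-0.61 and -0.64) lay among the nAVF libraries.

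Cox7a1, a subunit of cytochrome c oxidase of heart and brown fat, had 6.68, 2.7, 2.34 and 1.87 normalized CPM in nAVF and 7.29 at the lowest, 21.8 at the median and 46.6 at the highest in sham (log2 fold change -2.88, standard error 0.57, adjusted p = 0.0151, all 6 AVF 0.00365), and its call was lost without sample #06 (adjusted p = 0.0577) and without sample #11 (adjusted p = 0.067). Cpt1b, which moves fatty acids into mitochondria, had 20.6, 6.15, 7.83 and 5.15 against 14.1 at the lowest, 49.6 at the median and 104 at the highest (log2 fold change -2.40, adjusted p = 0.028, all 6 AVF 0.0091), a call that held in 5 of the 10 fits with 1 library left out, with an adjusted p of 0.0548 to 0.10 without #06, #07, #11, #16 and #22. Ldhb, a lactate dehydrogenase, had 32.9, 24.3, 20.1 and 21.4 against 31.4 to 94.9 (log2 fold change -1.39, adjusted p = 0.019, all 6 AVF 0.00449), and its call was lost without sample #06 (adjusted p = 0.0608) and without sample #11 (adjusted p = 0.0785). Sample #04 reached into the sham range for Cpt1b and Ldhb but not for Cox7a1. The mitochondrial gene mt-Co2 had 4278, 4136, 4359 and 4306 in nAVF and 5496 to 12893 in sham (adjusted p = 0.0362, all 6 AVF 0.0477), a level that is uncertain because nuclear copies share its sequence, and its call held in 3 of the 10 fits with 1 library left out, with an adjusted p of 0.0552 to 0.103 without #04, #06, #07, #11, #16, #17 and #19. Of the other metabolic counts, that of the citrate cycle was 0 without #06, #11, #16 or #22, 1 without #19 or #23, 6 without #04, 12 without #17 and 8 without #18. That of fatty acid oxidation was 0 without #06, #11, #16 or #22, 6 without #04, 11 without #17 and 5 without #18, and that of glycolysis 0 without #06 or #11, 1 without #04, #16, #22 or #23 and 7 without #17 or #18. The count of the mitochondrial genome was 0 without #06, #11, #16 or #19, 1 without #17 or #22 and 4 without #18.

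The brown fat list also had a negative median. Of 18 brown fat members, 8 fell (median log2 fold change -2.07), of which Cox7a1 and Cox8b are also members of oxidative phosphorylation and 3 of fatty acid oxidation. The summed level of the list was 180.0 to 521 normalized CPM in nAVF and 373 to 2518 in sham, with 331 and 657 in samples #05 and #09, and sham samples #17 and #18 had the lowest sums of their group, 373 and 548. The white fat list also had its lowest sham sums in samples #17 and #18, 19587 and 15835 normalized CPM. White fat sums were 14407 to 35323 in nAVF and 15835 to 56394 in sham. Ucp1, the defining uncoupling protein of brown fat, was at 88.7, 4.99, 91.6 and 1.69 in nAVF and 22.5 at the lowest, 355 at the median and 1090.05 at the highest in sham, with overlap (log2 fold change -3.14, standard error 1.19, adjusted p = 0.151, all 6 AVF 0.0905). Prdm16, a regulator of brown fat identity that other cells also express, fell, with 9.32, 10.2, 14.6 and 8.29 against 17.2 to 20.2 (log2 fold change -0.83, adjusted p = 0.012, all 6 AVF 0.00634). The potassium channel Kcnk3 had 72.5, 57.2, 42.9 and 36.7 against 81 to 163 (log2 fold change -1.16, adjusted p = 0.0189, all 6 AVF 0.00411), and its call was lost without sample #06 (adjusted p = 0.0518) and without sample #11 (adjusted p = 0.0748). The number of falling brown fat members was 1 without sample #06, 2 without #11 and 4 without #07, #16 or #22. The part of brown fat RNA in the metabolic genes was not tested.

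**Figure D5:**
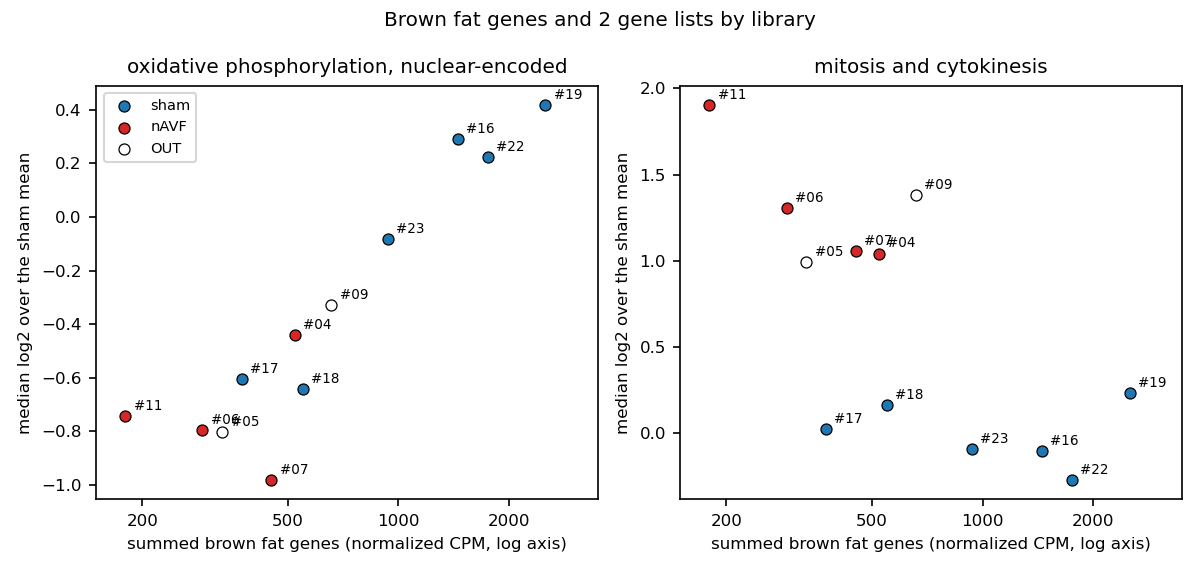
The summed normalized CPM of the brown fat list is on the horizontal log axis and the median log2 level over the sham mean of the oxidative phosphorylation list (left) or the mitosis list (right) on the vertical axis, with 1 point per library (sham blue, nAVF red, OUT open). Sham samples #17 and #18, with the lowest brown fat sums among sham (373 and 548), have oxidative phosphorylation medians near those of nAVF and mitosis medians near the other sham libraries.

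Among the DEG that fell by large folds, Fabp3, a fatty acid binding protein of heart, muscle and brown fat, had 4.78, 2.74, 7.02 and 2.01 normalized CPM in nAVF and 7.86 at the lowest, 21.1 at the median and 98.4 at the highest in sham, with the highest value in sample #19 (log2 fold change -2.99, adjusted p = 0.0271, all 6 AVF 0.0122), and its call held in 7 of the 10 fits with 1 library left out, with an adjusted p of 0.0508 to 0.10 without #04, #06 and #11. Pdk4, a kinase that restrains glucose oxidation, had 155, 116, 113 and 163 against 207 at the lowest, 331 at the median and 1047 at the highest (log2 fold change -1.75, adjusted p = 0.0414, all 6 AVF 0.0176), and its call held in 4 of the 10 fits with 1 library left out, with an adjusted p of 0.0662 to 0.114 without #04, #06, #07, #11, #16 and #22. Slc27a2, a fatty acid transporter abundant in liver and kidney, had 9.61, 3.91, 5.7 and 0.702 in nAVF and 13.3 to 53.4 in sham, with an adjusted p of 0.0264 that was 0.868 with all 6 AVF libraries, as samples #05 and #09 had 35.9 and 100.01. Its call held in 6 of the 10 fits with 1 library left out, with an adjusted p of 0.051 to 0.0872 without #06, #07, #16 and #22. Adtrp, a hydrolase of fatty acid esters, had 8.92, 7.19, 3.66 and 3.23 against 9.21 to 26.6 (adjusted p = 0.0243, all 6 AVF 0.23, with 6.51 and 27.1 in samples #05 and #09), and its call held in 6 of the 10 fits with 1 library left out, with an adjusted p of 0.0524 to 0.0842 without #06, #07, #11 and #22.

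None of the 27 white fat, 23 Schwann cell or 33 sympathetic neuron genes passed by edgeR's quasi-likelihood test, although all 33 sympathetic neuron genes had a negative log2 fold change (median -1.01, summed 420 to 2311 normalized CPM in nAVF and 1001 to 3979 in sham). Without sample #07 1 sympathetic neuron and 1 Schwann cell gene fell, without #19 1 sympathetic neuron gene, and without #04 1 white fat gene. With all 6 AVF libraries 3 sympathetic neuron and 2 Schwann cell genes fell, and in females alone 10 white fat genes fell. Dbh, the enzyme that makes noradrenaline, had 18.2, 78.2, 121 and 71 in nAVF and 56.9 at the lowest, 155 at the median and 272 at the highest in sham, and Th, tyrosine hydroxylase, 9.38, 23, 42.3 and 27.1 against 17.2 at the lowest, 50.4 at the median and 77.2 at the highest (adjusted p = 0.159 and 0.175, all 6 AVF 0.0642 and 0.0848). Striated muscle genes had a median of -4.62 that rested on single sham libraries: Myh6, the cardiac myosin, was at 409 in sample #19, and Acta1, skeletal actin, at 246 in sample #23. Adipoq, adiponectin, the marker of white fat, was at 249 to 573 in nAVF and 268 to 537 in sham (adjusted p = 0.937, all 6 AVF 0.886).

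Both sexes were in both groups, with 2 and 3 mice of each, so the difference of the change between sexes was tested as an interaction. It was called for 0 of 22059 genes by edgeR's quasi-likelihood test, with 1654 genes (7.498%) at an unadjusted p under 0.05 and a smallest adjusted p of 0.148, and DESeq2 called 70. Of the DEG, all 337 higher and all 103 lower had the same sign in males and females, and 264 and 51 changed at least 2-fold in both. The DEG were called from these same mice, so a shared sign is favoured by the selection. It is no test of agreement between the sexes. Tested apart, males gave 10 higher and 6 lower DEG (0.0456% and 0.0273% of their tested genes), and females 224 and 342 (1.02% and 1.56%). Eln had a log2 fold change of 3.45 in males and 3.94 in females (adjusted p = 0.0398 and 0.00256, edgeR's quasi-likelihood test), and the difference of 0.50 had an adjusted p of 0.790.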

How the data were processed

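RNA was measured in the IVC of 12 mice, 1 library each, by stranded poly(A) sequencing in paired ends. Reads were trimmed by the authors (PRINSEQ, Trimmomatic 0.39) and mapped to GRCm39 and Ensembl genes (STAR 2.7.7a). The authors deposited RSEM 1.3.3 expected counts, neither normalized nor filtered. Expected counts share reads among similar genes. The labels gave the operation and sex of each library, and the paper gave nAVF and OUT. The members and gene lists were chosen with earlier results of these data known, and the lists were written from general knowledge.

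Counts were rounded and normalized with TMM over the 10 libraries in edgeR 4.0.16 (R 4.3.3, limma 3.58.1). Genes with more than 12 counts over the 12 libraries and at least 1 rounded count in the 10 libraries were tested by edgeR's quasi-likelihood test without covariates, with Benjamini-Hochberg adjustment over all of them. The thresholds for DEG were 0.05 for the adjusted p value and 1 for the absolute log2 fold change. Named genes were, per direction, the 12 DEG lowest in adjusted p value and the 8 with the largest change that were protein-coding, did not overlap between groups and had at least 5 normalized CPM in the higher group, up to 4 members of each list with the lowest adjusted p value (with fewer than 2 passing, the 2 with the highest mean), and defining markers. Other genes named without values were chosen after their values were seen, as were Lars2 and the immunoglobulin genes. Some genes that the rule names are not reported here. Names came from a GRCm39 annotation for 54749 of 55414 genes. Depth was 15177881 to 22717423 counts. Within groups, the chi-square of pairs of libraries over its degrees of freedom was 36.8 to 637, more than counting error, so no libraries were merged. The alternatives were the exact test, DESeq2 1.42.0, a robust fit, other size factors, filters and fold thresholds, unrounded counts, no ribosomal RNA genes, sex or the replicate number as a term, each sex, all AVF, a fit of 3 groups, and each library left out. On simulated counts for this comparison over 22059 genes, 39 of 100 genes changed 2-fold and 96 of 100 changed 4-fold were called DEG, with 7 unchanged genes called. The 2-fold genes lay at the fold threshold itself, so an estimate below it was not called, and 63 of the 100 passed the adjusted p value alone. Changed genes were drawn only from those above a minimum mean count. GO and KEGG terms were not analysed here.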

Additional observations from a re-analysis of the deposited data

Results flagged for a closer look

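Within the groups of 4 and 6, single libraries lay far from the others in 19 genes and 3 summed lists. Chance gives such a gap in about 1 in 20 groups, and 177 genes and sums were searched in each group. In the nAVF group sample #04 stood apart 8 times: it was the highest for Inmt (16.9 normalized CPM), Rxrg (4.78), Ccne2 (16.0), Acaa2 (89.2), Igkv4-68 (7.19), Ighv1-82 (3.74), and for summed citrate cycle genes (4340) and summed glycolysis genes (2679). Igkv4-68 and Ighv1-82, and Lars2 below, were named after their values were seen, so their gaps followed from that choice. Sample #11 stood apart 3 times, as the highest for Adamtsl2 (25.4), Ctss (232) and Ccl6 (342).

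Sample #07 was the highest for Lars2, with 19125 normalized CPM against 3065, 379, 19125 and 582 in samples #04, #06, #07 and #11 in turn and 329 to 964 in sham. Lars2 is a mitochondrial leucyl-tRNA synthetase whose locus is known to collect reads of ribosomal RNA, so its level is uncertain. Its adjusted p was 0.0496 with edgeR's quasi-likelihood test and 0.0797 with all 6 AVF libraries and 0.238 without sample #07, the library with 46.0% ribosomal RNA.

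In the sham group, the libraries apart from the rest were #18 for Esm1 (3.26), #22 for Fam174b (47.8) and summed DNA replication genes (264), #19 for Fabp3 (98.4), Rrm2 (9.15) and Myh6 (409), #23 for Skil (52.6) and Acta1 (246), and #16 for Tfpi2 (9.33) and Hp (212). Each was the highest of its group except Fam174b, Skil and the DNA replication sum, which were the lowest.

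Adipoq, adiponectin, moved in opposite directions by sex, with both male nAVF libraries above all male sham libraries and both female nAVF libraries below all female sham libraries. The difference of its log2 fold change, female minus male, was -1.31, with an adjusted p of 0.526 for the interaction by edgeR's quasi-likelihood test, so it was not shown to differ.

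In the libraries outside the fit, the summed level of 25 hepatocyte genes was 7176 normalized CPM in sample #05 and 18657 in sample #09, while the sham libraries had 1073 to 1839. In the nAVF libraries it was 4176, 2042, 899 and 1659 in samples #04, #06, #07 and #11. The list median, as log2 over the sham mean, was -0.05 to 0.08 in nAVF, 6.42 in sample #05 and 7.88 in sample #09.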

How the results depend on the processing

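The 337 higher DEG moved by over 1.5 times with all 6 AVF libraries (533), in male mice (10), in female mice (224), with no fold threshold (713) and, among the fits that leave out 1 library (207 to 376), without sample #11. The 103 lower DEG moved with the exact test (290), DESeq2 (318), the replicate block (178), all 6 AVF libraries (222), male mice (6), female mice (342), no fold threshold (250) and 1 library left out (31 to 164). Fewer mice entered the fits by sex, and the other causes were not tested. The share of DEG that were higher, 76.6%, was 60.5% with DESeq2, 61.9% with the exact test, 59.1% with the block, 39.6% in females and 62.5% in males, and 87.0% without sample #11. The interaction with sex, 0 genes, gave 70 with DESeq2 and 0 to 1 with 1 library left out. Mice with the same number and sex were not taken as pairs in the main fit. Their deviations correlated by 0.30, 0.27, -0.12 and 0.32, and 3 of 4 nAVF libraries were closest to the sham library of their own number. The mean correlation was 0.19 for these pairs and -0.04 for the others, so a shared structure by number is not excluded. With the replicate block, 257 higher and 178 lower DEG were called, and 48 mitosis and 5 DNA replication genes rose. In that fit 22 genes of oxidative phosphorylation and 12 each of the citrate cycle, fatty acid oxidation and brown fat fell. So did 9 of glycolysis and 7 of striated muscle, and Ucp1 passed (log2 fold change -4.04, adjusted p = 0.0158, edgeR). Samples #17 and #22 had no nAVF library of their number and sex there, so they did not inform the change. Without #17 alone 36 genes of oxidative phosphorylation fell, so the block cannot be told apart from the loss of these libraries.

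Of 121 named genes that passed, 111 lost the call in males, 49 in females, 40 without sample #11, 40 without #06, 24 without #07, 15 with the block, 16 with a robust fit, 7 with all 6 AVF libraries and 3 with the exact test. Genes that did not pass changed sign: Adipoq was 0.0697 with all 6 AVF libraries and 0.57 in males (-0.31 to 0.12 with 1 library left out), Acta1 0.45 in males (-6.22 to 1.44), Myh6 -10.50 to 1.98, Hbb-bs -0.0909 to 0.89, Myh11 0.0148 in females, and Cd3e 0.0053 without ribosomal RNA genes and 0.0366 in females (-0.53 to 0.27), all as log2 fold changes. Scaling without ribosomal RNA genes or by RLE size factors moved the median of all genes by under 0.1, and turned the median of the arterial and venous list from -0.01 to 0.02. Genes at or under 3 counts, as in sample #07 with 8196603 other counts, are not distinguishable from 0 at this depth.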

Other observations

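Of 29 genes of ion channels and calcium handling, 3 fell and 1 rose. The potassium channels Kcnk3 and Kcnd3 were among those that fell, and Trpc6, a cation channel gated by diacylglycerol, had 3.68, 5.8, 6.1 and 6.27 normalized CPM in nAVF and 1.61 to 3.35 in sham (log2 fold change 0.99, adjusted p = 0.0365, all 6 AVF 0.00901, edgeR's quasi-likelihood test). The Trpc6 call held in 3 of the 10 fits with 1 library left out, with an adjusted p of 0.0502 to 0.119 without #06, #07, #11, #16, #17, #22 and #23. The falling count was 0 without samples #06 or #11, 1 without #19 or #22 and 4 without #07.

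Of 27 cytokines and receptors, 2 rose, Tnfrsf11b and Il1r1, the receptor of interleukin 1. Il1r1 had 151, 91.1, 87 and 132 normalized CPM in nAVF and 68.4 to 79.4 in sham (log2 fold change 0.63, adjusted p = 0.0343, all 6 AVF 0.00975), and its call held in 5 of the 10 fits with 1 library left out, with an adjusted p of 0.0632 to 0.116 without #04, #11, #16, #22 and #23. Pdpn, podoplanin, a glycoprotein of lymphatic endothelium and activated fibroblasts, was the 1 member of 16 genes of other neighbouring tissues that rose, with 48.6, 46, 38.3 and 54.8 against 17.9 to 31.2 (log2 fold change 0.93, adjusted p = 0.0151, all 6 AVF 0.00814). Its call was lost without sample #11 (adjusted p = 0.0634), and 5 members of that list rose without #22. No circadian clock gene of 21 passed by edgeR's quasi-likelihood test, with 1 falling without #04, 1 without #06, 2 with all 6 AVF libraries and 6 in females alone. Hp, haptoglobin, was the 1 of 25 hepatocyte genes that rose, with 744, 413, 133 and 289 against 67.2 to 212 (log2 fold change 1.75, adjusted p = 0.0297, all 6 AVF 0.0151), and its call held in 5 of the 10 fits with 1 library left out, with an adjusted p of 0.058 to 0.0751 without #04, #06, #11, #22 and #23. With all 6 AVF libraries 22 hepatocyte genes rose. No erythrocyte or platelet gene of 16 passed, and Hbb-bs, a beta globin, was at 3453, 1954, 1683 and 8367 in nAVF and 1882 to 2917 in sham (adjusted p = 0.354, all 6 AVF 0.375).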
